A study of Caenorhabditis elegans with 8 samples.

Results

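The genes described here are the 115 Caenorhabditis elegans genes named bath, math or btb with a number, out of 46422 gene entries counted in whole arrested larvae. The rule for members uses the gene name: 44 are bath genes (BTB and MATH domains), 49 are math genes (MATH domain) and 22 are btb genes (BTB domain). The reference annotation lists 90 of them as protein-coding and 24 as pseudogenes (7 bath, 12 math and 5 btb), and bath-43 had no gene model there. On the WBcel235 genome 98 lie on chromosome II, 5 on I, 5 on III, 4 on V, 1 on IV and 1 on X.

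The BTB domain is a fold through which proteins pair with each other and dock onto CUL-3, the scaffold of a class of ubiquitin ligases. The MATH domain binds partner proteins, so a protein with both domains can hold a substrate against the ligase and have it marked for destruction. In the worm the best known example is MEL-26, which delivers the microtubule-severing protein MEI-1 (katanin) to CUL-3 after meiosis in the embryo. The nematode genome holds many more such genes than vertebrate genomes do, and for most of them the substrate is not known.

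The strains compared were HBR227, which carries aptf-1(gk794), and the wild type N2, each with 4 libraries (A to D) that the labels call biological replicates. Sleep in the worm depends on the neuron RIS, whose function requires APTF-1, a transcription factor of the AP2 family. Larvae of both strains hatched in buffer without food after hypochlorite treatment of their parents, and whole animals were taken in L1 arrest at 48 h, with no further treatment. The labels do not say whether HBR227 was outcrossed, and aptf-1 lies on chromosome II, as most of the 115 genes do, so effects of the allele and of other differences between the strains cannot be told apart. In whole animals, fewer cells of a type and less RNA per cell cannot be told apart either.

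Depth was 48.4 to 65 M counts (mega-counts) in HBR227 and 43.6 to 56.4 M in N2. As a check of the labels, aptf-1 had 0.720, 1.08, 1.09 and 1.03 CPM (TMM-scaled counts relative to library size) in HBR227 A to D, against 3.59, 3.26, 3.71 and 4.36 CPM in N2 A to D. Every HBR227 library was below every N2 library (log2 fold change -1.92 ± 0.16 (SE), adjusted p = 0.000112, edgeR's quasi-likelihood test with Benjamini-Hochberg adjustment over all genes tested). HBR227 A stood apart from the other 7 libraries: on the first principal component, with 46.0% of the variance, it lay at -74.3 and the others between -9.86 and 28.3. The 10 listed genes of oocytes and the adult germline, cells that arrested L1 larvae should lack, summed to 292 CPM in HBR227 A, 106 to 121 CPM in HBR227 B to D and 95.8 to 130 CPM in N2, with none at 0 in any library. Of these oma-1, oma-2, puf-5, puf-11, egg-1, egg-2, cbd-1 and rme-2 were each highest in HBR227 A. perm-2 and perm-4 went the other way, at 0.175 and 0.240 CPM in HBR227 A, against 0.234 to 0.328 and 0.273 to 0.359 CPM in HBR227 B to D. The 6 yolk genes summed to 13 CPM in HBR227 A, 9.90 to 10.4 CPM in HBR227 B to D and 7.87 to 8.87 CPM in N2, and vit-6 among them was higher in HBR227 (0.96 ± 0.21, adjusted p = 0.00916). vit-1 was below every N2 library in all 4 HBR227 libraries (-0.71 ± 0.30, adjusted p = 0.123) and passed as lower without HBR227 A (-0.44, adjusted p = 0.0345, edgeR). The 26 sperm genes summed to 6.39 CPM in HBR227 A, 2.61 to 3.28 CPM in HBR227 B to D and 3.15 to 4.12 CPM in N2, with 1 at 0 in HBR227 A and 2 to 4 at 0 in each of the others. The 17 markers of larval tissues were present in every library and summed to 7578 CPM in HBR227 A, 10503 to 11081 CPM in HBR227 B to D and 9918 to 10857 CPM in N2. The muscle genes unc-54 and myo-2 held most of that sum, at 4190 and 1441 CPM in HBR227 A, their lowest library. The markers did not all move the same way. Those of primordial germ cells, pgl-1, glh-1 and nos-2, had 38.7, 24.1 and 36.5 CPM in HBR227 A, against 14.9 to 15.3, 14.8 to 17.7 and 17.3 to 20.2 CPM in HBR227 B to D. Among the 17 markers ges-1, an intestinal esterase, was higher in HBR227 (0.44 ± 0.10, adjusted p = 0.0151, and 0.0530 without N2 B, edgeR). The part of these differences in the results below was not tested, so counts are also given without HBR227 A.

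A minority of the family passed the test between the strains, in both directions. Of the 115 genes, 91 had enough counts to be tested, and 14 of these passed an adjusted p of 0.05 (15.4%), 8 higher and 6 lower in HBR227. Over all 17522 genes tested 21.5% passed, 11.2% as higher and 10.4% as lower. The share of bath, math and btb genes that passed was below that of all genes in this fit, a difference that was not tested. With DESeq2 18 of the 114 members with any count passed, against 4492 of the 28169 genes with any count. Its own filter can leave genes without an adjusted p, so these are not shares of genes tested. With no low-count filter 12 of 114 members passed, against 3419 of 28169 genes. With total counts alone as scaling, which shifted all genes to a median of -0.11 and the 91 to -0.08, 5 members were higher and 12 lower (17 of 91), while over all genes 24.5% passed there, 6.70% as higher and 17.8% as lower. The median log2 fold change was 0.02 over the 91 genes and -0.00 over all genes tested. Most differences were small: 74 of the 91 were under 1.5-fold, 7 of the 14 that passed among them, and 2 of the 14, bath-8 and bath-31, were past 2-fold, both lower in HBR227.

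By name group the counts were as follows, where 21.5% of all genes tested passed, 11.2% as higher and 10.4% as lower. Among 42 tested bath genes 2 were higher and 3 lower (11.9% passed), with a median log2 fold change of 0.04. Among 28 tested math genes 4 were higher and 0 lower (14.3% passed), with a median of 0.16 and 18 values above 0. Among 21 tested btb genes 2 were higher and 3 lower (23.8% passed), with a median of -0.16 and 14 values below 0. With total counts alone the medians were -0.07 for bath, 0.06 for math and -0.27 for btb genes, so the bath median changed sign there. The difference between the name groups was not tested.

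The bath gene with the smallest p was bath-38 (II:10042780-10045270, minus strand), which codes for a protein with both domains. It had 107, 89.8, 90.3 and 91.7 CPM in HBR227 A to D, against 62.5, 59.1, 62.1 and 64.5 CPM in N2 A to D. Every HBR227 library was above every N2 library, HBR227 A was the highest, and the means were 94.8 ± 8.37 CPM in HBR227 and 62.1 ± 2.24 CPM in N2 (SD, n = 4 each). The log2 fold change was 0.61 ± 0.07 (adjusted p = 0.000374, edgeR), and 0.55 ± 0.04 without HBR227 A. Next came bath-44 (II:7394955-7397351, plus strand), at 99.8, 84.7, 89.3 and 89.1 CPM in HBR227 A to D and 65.6, 64.4, 66.1 and 63.8 CPM in N2 A to D. Here too the strains did not overlap, and the N2 libraries lay close together (log2 fold change 0.48 ± 0.06, adjusted p = 0.000567, edgeR). Both genes stand alone on the chromosome, away from the arrays of related genes, and both are among the most abundant of the family.

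The 3 bath genes that were lower all lie on chromosome II, in the region that holds the array of bath-28 to bath-8 and the lone bath-31. bath-31 (II:3731973-3733181, plus strand) had 2.86, 2.59, 2.11 and 2.53 CPM in HBR227 A to D, against 4.77, 5.78, 4.36 and 5.33 CPM in N2 A to D. The highest HBR227 library was below the lowest N2 library, and the difference was just past 2-fold (log2 fold change -1.01 ± 0.14, adjusted p = 0.00101, edgeR). bath-10 (II:3375079-3376721, plus strand) had 14.9, 13.9, 9.30 and 12.5 CPM in HBR227 A to D, against 21, 26.7, 22.2 and 24.3 CPM in N2 A to D. Its strains did not overlap either, and its log2 fold change was -0.90 ± 0.14 (adjusted p = 0.00222, edgeR). The pseudogene bath-8 (II:3380288-3381403, plus strand), in the same array as bath-10, was low throughout, at 0.698, 0.484, 0.410 and 0.497 CPM in HBR227 A to D and 0.914, 1.3, 1.35 and 0.820 CPM in N2 A to D. All HBR227 values were below all N2 values, the nearest being HBR227 A and N2 D, and the log2 fold change was -1.07 ± 0.24 (adjusted p = 0.0126, edgeR).

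All 4 math genes that passed were higher in HBR227, and all lie in the part of chromosome II where math genes are dense. math-38 (II:1577378-1579986, minus strand) had 3.34, 3.72, 4.43 and 4.53 CPM in HBR227 A to D, against 2.47, 2.08, 2.49 and 2.76 CPM in N2 A to D. Every HBR227 library was above every N2 library, with HBR227 A nearest to N2 (log2 fold change 0.71 ± 0.14, adjusted p = 0.00679, edgeR). math-27 (II:1767811-1770955, plus strand), listed as a pseudogene with 11 exon blocks, had 55.7, 63.4, 69.0 and 69.1 CPM in HBR227 A to D, against 49, 43.3, 43.8 and 50.9 CPM in N2 A to D. It was the pseudogene with the highest level per kb of exon in the family, and its strains were fully apart (0.46 ± 0.08, adjusted p = 0.00463, edgeR). Its neighbour math-26 (II:1771647-1774942, plus strand), which is protein-coding, had 44.7, 51.2, 54.8 and 56.1 CPM in HBR227 A to D, against 43.7, 37.1, 39.6 and 46.9 CPM in N2 A to D. HBR227 A lay within the range of N2 here, and the difference was smaller (0.31 ± 0.09, adjusted p = 0.0434, edgeR). math-22 (II:1905404-1907831, plus strand) had 3.95, 4.59, 4.53 and 5.09 CPM in HBR227 A to D, against 2.81, 3.39, 3.12 and 3.34 CPM in N2 A to D. These did not overlap (0.52 ± 0.12, adjusted p = 0.0123, edgeR). How reads shared between similar copies were counted is not known, so values of adjacent copies are uncertain.

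The 5 btb genes that passed were split by direction. btb-6 (II:1715303-1716497, plus strand) had the highest level per kb of exon among them, at 18.2, 12.7, 9.94 and 10.5 CPM in HBR227 A to D and 18.2, 24.0, 19.5 and 19.0 CPM in N2 A to D. HBR227 A was barely below the lowest N2 library and the other 3 were well below (log2 fold change -0.65 ± 0.18, adjusted p = 0.0330, edgeR). btb-9 (II:1728506-1730065, plus strand) had 3.32, 2.08, 2.44 and 2.45 CPM in HBR227 A to D, against 4.01, 3.69, 3.18 and 3.93 CPM in N2 A to D. HBR227 A exceeded N2 C, so the strains overlapped (-0.53 ± 0.16, adjusted p = 0.0375, edgeR). btb-14 (II:12383463-12384692, plus strand) had 4.25, 3.03, 3.48 and 3.80 CPM in HBR227 A to D, against 4.93, 4.82, 4.30 and 5.29 CPM in N2 A to D. HBR227 A and N2 C nearly met (-0.41 ± 0.13, adjusted p = 0.0461, edgeR), and 9.36% of its exon length overlaps sre-42 on the other strand, from which its reads could not be told apart if strand was not used in counting. Of the 2 that were higher, btb-17 (II:3295405-3296658, plus strand) had 14.6, 14.2, 14.3 and 13.3 CPM in HBR227 A to D, against 12.4, 9.73, 11.1 and 11.6 CPM in N2 A to D. The 4 HBR227 values lay close together and above all N2 values (0.33 ± 0.09, adjusted p = 0.0265, edgeR). btb-5 (III:59869-61145, minus strand), which was the 1 gene outside chromosome II to pass, had 0.742, 0.609, 0.684 and 0.756 CPM in HBR227 A to D, against 0.379, 0.415, 0.530 and 0.429 CPM in N2 A to D. It rested on 237 counts in all 8 libraries together (0.66 ± 0.20, adjusted p = 0.0415, edgeR), and without HBR227 A its adjusted p was 0.0563.

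**Figure D1:**
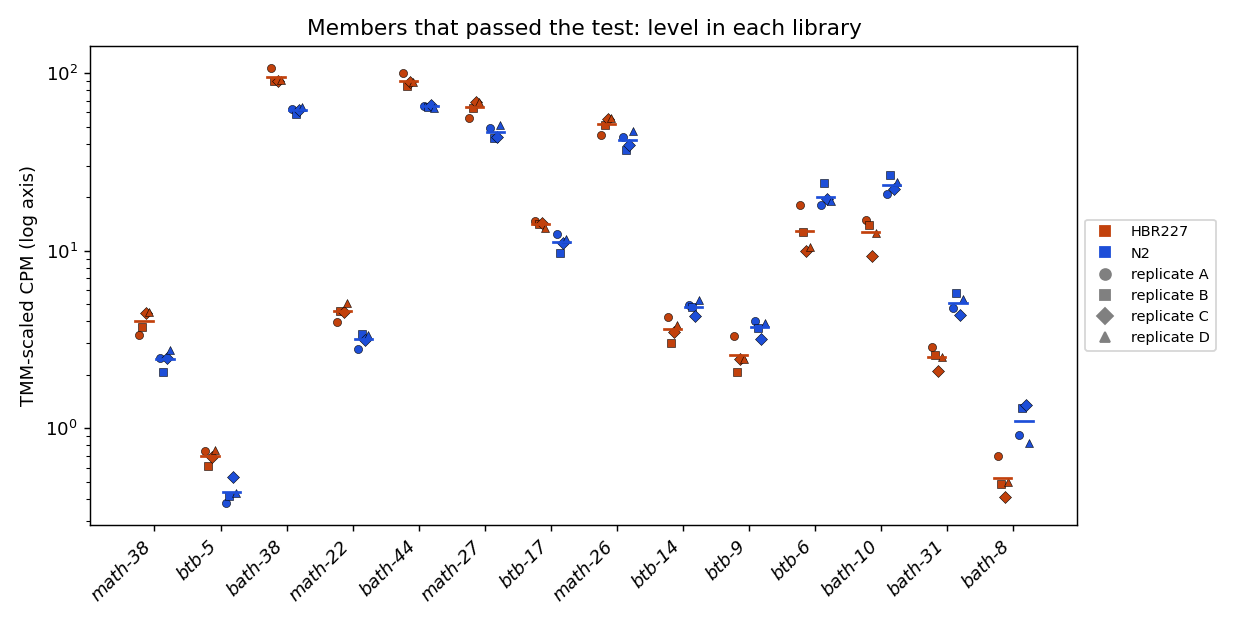
Level of the 14 genes that passed the test in each library, as TMM-scaled CPM on a log axis; orange symbols are HBR227, blue symbols N2, the symbol shape gives the replicate letter and the bar the group mean. The genes run by log2 fold change with the largest rise at the left; bath-8 at the right has means of 0.522 CPM in HBR227 and 1.09 CPM in N2.

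Full separation of the strains was a wider count than the test. In 19 of the 91 tested genes all 4 libraries of one strain lay above all 4 of the other, 12 with HBR227 higher and 7 with HBR227 lower, against 28.9% of all genes tested. Among the 19 were 7 that did not pass the test. bath-42, the most abundant per kb of the members with a gene model, had 108, 92.2, 92.4 and 97.1 CPM in HBR227 A to D and 91.4, 89.9, 91.6 and 87.2 CPM in N2 A to D. Its lowest HBR227 value was barely above its highest N2 value (0.11 ± 0.06, adjusted p = 0.203, edgeR). math-3 had 25.6, 26.2, 28.4 and 31.8 CPM in HBR227 A to D and 23.1, 21.1, 24.2 and 24.6 CPM in N2 A to D (0.27 ± 0.09, adjusted p = 0.0516, edgeR). It shares 20.5% of its exon length with F36H5.14 and math-26 on its strand. The part shared with math-26 is small, at 0.779% of the exon length of math-26. The other 5 were math-34, math-45 and btb-18 with higher values in HBR227, at 0.21, 0.53 and 0.71, and the pseudogene btb-1 and btb-12 with lower ones, at -0.36 and -0.46, with adjusted p-values between 0.0573 and 0.234 (edgeR).

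Some of the largest fold changes did not pass either. math-18 (II:2154008-2155220, plus strand) had 1.24, 3.30, 3.24 and 3.60 CPM in HBR227 A to D, against 1.72, 1.66, 1.24 and 1.70 CPM in N2 A to D. HBR227 B, C and D were well above every N2 library, while HBR227 A sat with the lowest N2 value. The log2 fold change was 0.85 ± 0.29 with an adjusted p of 0.0624, and 1.09 ± 0.14 with an adjusted p of 8.52e-06 without HBR227 A (edgeR). The pseudogene math-29 (-1.13 ± 0.45, adjusted p = 0.103), bath-25 (-0.86 ± 0.34, adjusted p = 0.104), btb-18 (0.71 ± 0.26, adjusted p = 0.0767) and math-15 (-0.68 ± 0.48, adjusted p = 0.343) were the other 4 of the 5 largest; btb-18 shares 10.9% of its exon length with btb-16. These 4 were near the limit of detection, with 89 to 209 counts over the 8 libraries, where 3 counts equal 0.0468 to 0.0668 CPM in a library.

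The number of genes that passed depended on HBR227 A. In 76.9% of the 91 genes it lay outside the range of HBR227 B to D, above it in 48 genes and below it in 22, against 81.7% of all genes tested. Without it 31 of 94 tested genes passed (33%), 13 higher and 18 lower, against 44.3% of all genes tested, 21.0% higher and 23.3% lower. Of the 14 genes above 13 kept their call and direction, all but btb-5. Over the 8 fits that each left out 1 library, 8 of the 14 passed in every fit: bath-38, bath-44, bath-31, bath-10, bath-8, math-38, math-27 and math-22. The other 6, math-26 and the 5 btb genes, passed in some of them, and their highest adjusted p-values were 0.113 for math-26, 0.0985 for btb-6, 0.0961 for btb-9, 0.115 for btb-14, 0.0698 for btb-17 and 0.105 for btb-5 (edgeR). btb-6 and btb-14 passed in 1 of the 8, the fit without HBR227 A, btb-5 in the fit without N2 C, btb-9 in the fits without HBR227 A or N2 C, math-26 in those without HBR227 A or N2 D, and btb-17 in 4, losing its call without HBR227 B, HBR227 C, N2 B or N2 C. By name group the counts without HBR227 A were 2 higher and 7 lower of 43 tested bath genes (20.9% passed). They were 10 higher and 3 lower of 30 math genes (43.3%), and 1 higher and 8 lower of 21 btb genes (42.9%), against 44.3% of all genes tested. The medians without it were -0.05, 0.15 and -0.33 for bath, math and btb genes in that order, so the bath median changed sign.

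A further 18 genes passed without HBR227 A but not with all 8 libraries, most of them lower. The 12 lower genes were btb-8, btb-10, btb-11, btb-12, btb-19, bath-2, bath-9, bath-41, bath-46, math-20, math-29 and math-50, with log2 fold changes between -1.59 and -0.25. The 6 higher genes were math-3, math-4, math-18, math-40, math-41 and math-45, between 0.17 and 1.09. Over all genes tested, 1960 passed as higher and 1814 as lower with all 8 libraries. In the fit without HBR227 A these counts were 3748 and 4158, so lower calls also came to outnumber higher ones there. As an example chosen after the values were seen, btb-10 (II:1059662-1060802, minus strand) had 7.03, 4.39, 3.09 and 3.26 CPM in HBR227 A to D, against 6.22, 7.47, 7.02 and 6.32 CPM in N2 A to D. HBR227 A lay inside the N2 range and the other 3 below it, so the log2 fold change was -0.61 ± 0.24 with an adjusted p of 0.0978, and -0.91 ± 0.13 with an adjusted p of 2.02e-05 without HBR227 A (edgeR). bath-41 (III:6720415-6722258, minus strand) had 31.6, 16.0, 16.5 and 17.1 CPM in HBR227 A to D, against 18.6, 21.6, 20.05 and 18 CPM in N2 A to D. HBR227 A alone was above N2, and the log2 fold change was 0.05 with it and -0.25 ± 0.07 without it (adjusted p = 0.00797, edgeR).

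**Figure D2:**
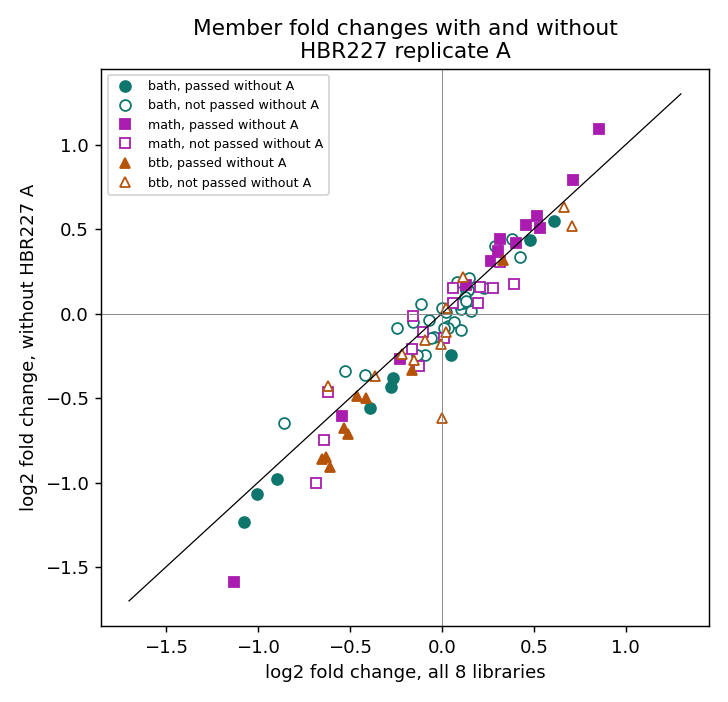
Log2 fold change of HBR227 over N2 for the tested bath, math and btb genes, with all 8 libraries on the x axis and without HBR227 A on the y axis; the diagonal line marks equal values. Circles are bath, squares math and triangles btb genes, filled where the gene passed without HBR227 A (31 genes); most filled btb symbols lie below the line.

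The levels of the family spanned a wide range, and 6 members held most of the reads. Among members with a gene model the highest per kb of exon were bath-42 at 55.1, math-33 at 49.9, bath-38 at 48.0, bath-44 at 44.7 and bath-40 at 44.4 CPM per kb (means of all 8 libraries). math-41 followed at 25.0 CPM per kb. bath-43, with means of 147 CPM in HBR227 and 135 CPM in N2, has no exon length here, so its place per kb is not known. math-33, the worm counterpart of the deubiquitinating enzyme USP7, had 215, 210, 220 and 215 CPM in HBR227 A to D and 216, 197, 207 and 206 CPM in N2 A to D. Its strains overlapped (0.06 ± 0.04, adjusted p = 0.379, edgeR). bath-40 had 79, 63.9, 65.3 and 65.1 CPM in HBR227 A to D and 64.7, 62.8, 65.8 and 61.2 CPM in N2 A to D. HBR227 A alone was above the rest (0.10 ± 0.07, adjusted p = 0.353, edgeR). Of the 5 most abundant per kb among members with a gene model, bath-38 and bath-44 passed the test and bath-42, math-33 and bath-40 did not.

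The 6 members with the most reads, math-33, bath-43, bath-42, bath-38, bath-44 and bath-40, held 56.1% to 56.9% of all counts of the family in HBR227 libraries and 52.9% to 54.9% in N2 libraries. The whole family took 0.118% to 0.129% of a library in HBR227 and 0.118% to 0.121% in N2. Its summed level was 1359, 1208, 1232 and 1251 CPM in HBR227 A to D, against 1171, 1121, 1151 and 1168 CPM in N2 A to D. Every HBR227 sum was above every N2 sum on this TMM scale, with HBR227 A the highest. As a share of unscaled library counts the strains overlapped, and HBR227 C, at 0.1179%, was below the lowest N2 library, N2 C at 0.1181%. The bath genes summed to 753, 618, 627 and 636 CPM in HBR227 A to D and 599, 582, 596 and 589 CPM in N2 A to D, and the math genes to 505, 515, 535 and 544 CPM in HBR227 A to D and 480, 438, 461 and 486 CPM in N2 A to D. The btb genes ran the other way in 3 libraries, at 102, 75.9, 70.6 and 70.3 CPM in HBR227 A to D, against 92.3, 101, 94.5 and 93.3 CPM in N2 A to D. HBR227 A had the highest btb sum of all 8 libraries.

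In each name group the median level of the pseudogenes was below that of the coding members. It was 3.02 CPM per kb for coding bath genes and 0.869 for bath pseudogenes, 0.613 for coding math genes and 0.201 for math pseudogenes, and 3.67 for coding btb genes and 0.890 for btb pseudogenes. The math genes had both very high and very low members. Of the 24 genes with too few counts to test, 21 were math genes, 2 bath and 1 btb. Of those 24, 16 are listed as coding and 8 as pseudogenes, and their totals over all 8 libraries were 0 to 86 counts. math-6 had 0 counts in every library, while 98 of the 115 genes had at least 1 count in all 8.

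**Figure D3:**
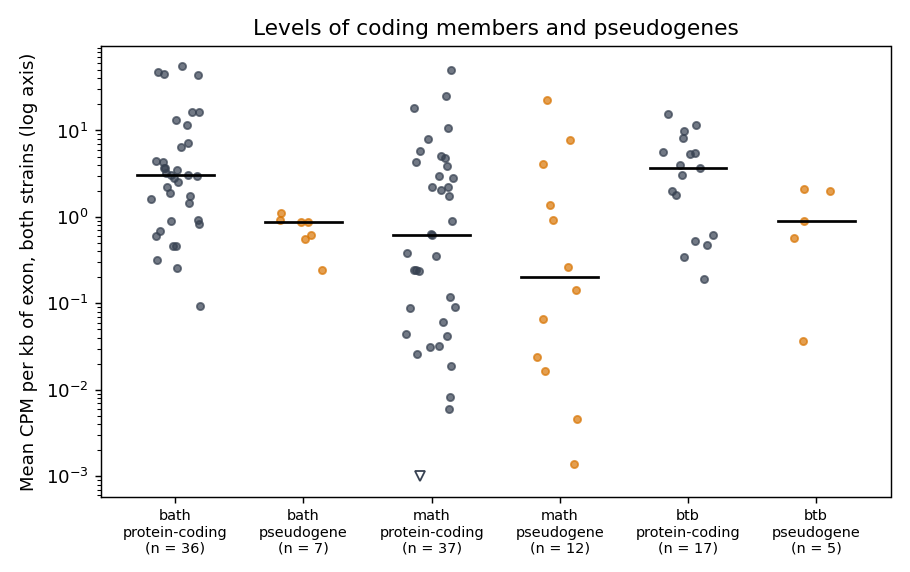
Mean level over both strains in CPM per kb of exon, on a log axis, for coding members and pseudogenes of each name group (1 point per gene, bar at the median); bath-43, which has no gene model, is not shown. The open triangle is math-6, which had 0 counts and is drawn at the bottom of the axis; the math genes spread furthest, down to values below 0.01.

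The 98 members on chromosome II were clustered. Members were grouped into runs where neighbours lie within 20 kb, a grouping made after the values were seen. Of the members with coordinates 91 fall into such runs and 23 stand alone. Among the members in runs 9 of 68 tested passed (5 higher, 4 lower), and among those standing alone 5 of 22 (3 higher, 2 lower). These are 13.2% and 22.7%, against 21.5% of all genes tested, and without HBR227 A they were 32.9% and 34.8%, against 44.3%. On chromosome II 13 of 75 tested members passed (17.3%), and over all genes of that chromosome 23.0%. On the other chromosomes 1 of 15 passed (6.67%, against 21.5% of all genes tested). The difference from chromosome II was not tested, and 15 genes are few for a share.

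The largest run, math-15 to math-50 (II:1866381-1957890), has 29 members, of which 11 could be tested. Within it, 13 neighbouring genes in a row from math-14 to math-25 (II:1869420-1897758) were all too low to test, 10 of them coding and 3 pseudogenes. Those 13 genes had 185 counts together over the 8 libraries, 13 to 33 per library. Beyond the low stretch math-22 passed as higher. In the next run, math-44 to bath-14 (II:1989310-2049175), 15 of 16 members were tested and 0 passed, 5 with values above 0 and 10 below, and 1 member passed as lower without HBR227 A.

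The runs that held calls differed in direction. From math-28 to math-2 (II:1763372-1801379) all 5 tested members had log2 fold changes above 0, between 0.27 and 0.46, and 2 of them, math-26 and math-27, passed. Of 5 other tested genes in the same interval, looked up after the values were seen, 3 were lower in HBR227: C08F1.10, C08F1.11 and C08F1.6, at -0.80, -0.76 and -0.95 (adjusted p = 0.0426, 0.0291 and 0.00120, edgeR). The other 2, fbxb-13 and F36H5.14, had values of -0.59 and 0.27 and did not pass, and without HBR227 A fbxb-13 passed as lower (-0.81, adjusted p = 0.00289, edgeR). F36H5.14 shares exon length with math-3 on the same strand. From math-29 to btb-9 (II:1706709-1730065) 4 of 5 tested members were below 0 and 2, btb-6 and btb-9, passed as lower. The F-box genes fbxb-5, fbxb-11 and fbxb-48 lie between them, with values of -0.65, -0.45 and -0.52 that did not pass (adjusted p = 0.273, 0.123 and 0.0894, edgeR), and F45C12.17 did pass at -0.78 (adjusted p = 0.0103, edgeR). Without HBR227 A fbxb-5, fbxb-11 and fbxb-48 also passed as lower, at -1.19, -0.64 and -0.72 (adjusted p = 0.00276, 0.00159 and 0.000856, edgeR), and 4 of the 5 members of that run did. In the run bath-28 to bath-8 (II:3343731-3381403) 7 of 8 members were tested and 2, bath-10 and bath-8, passed as lower, while bath-9 between them, of whose exon length 18.6% overlaps Y49F6C.2 on the same strand, was at -0.39 ± 0.15 (adjusted p = 0.0871, edgeR). Without HBR227 A bath-9 passed as well. Of 5 other tested genes in that interval 0 passed with all 8 libraries. Without HBR227 A linc-11 passed there as higher (0.16, adjusted p = 0.0227, edgeR) and Y49F6C.8 as lower (-0.43, adjusted p = 0.0277, edgeR). Within the remaining runs fbxa-163 and ZK250.13 were higher, at 0.43 and 0.91 (adjusted p = 0.0152 and 0.00603, edgeR). M01D1.12 and ZK250.15 were lower, at -0.67 and -0.72 (adjusted p = 0.00506 and 0.0293, edgeR).

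**Figure D4:**
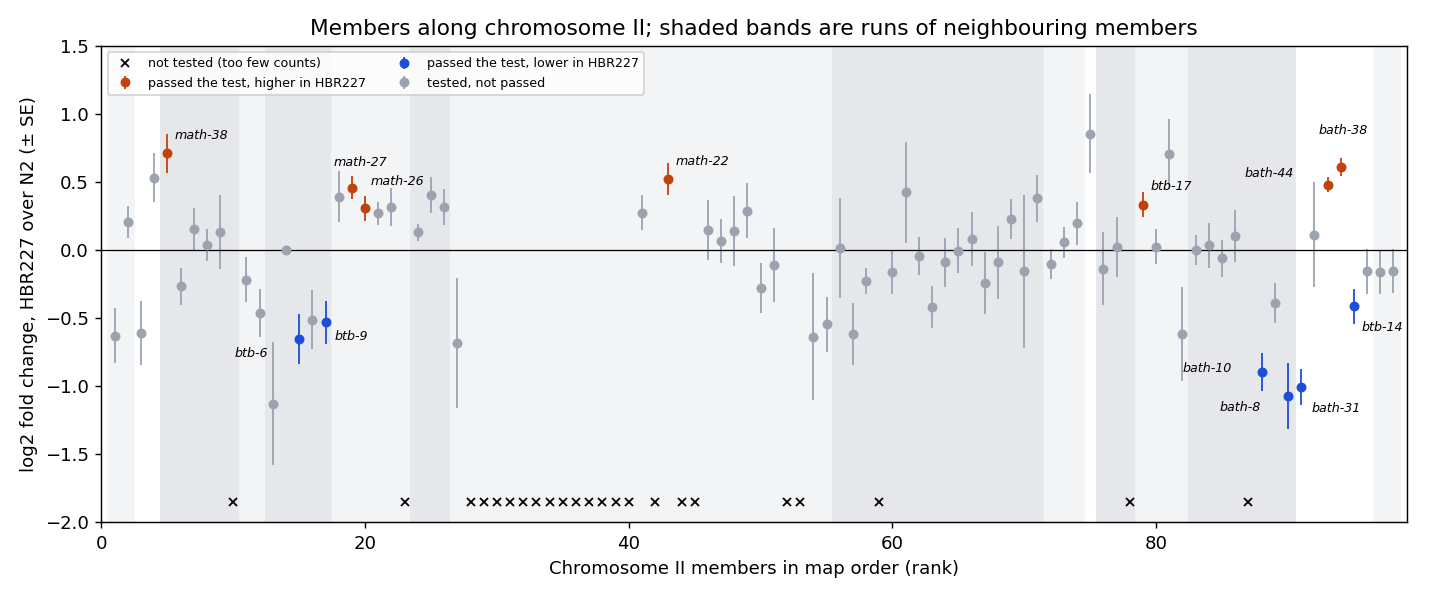
Log2 fold change of HBR227 over N2 (± SE) for the 98 members on chromosome II in map order; shaded bands of alternating grey are runs of neighbours, white bands are members that stand alone, and crosses are members with too few counts to test. Orange points passed as higher and blue points as lower; btb-7 has no error bar because its fold change is close to 0 and the error was derived from it.

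Among the genes of the CUL-3 machinery that BTB proteins serve, a few passed in each direction. cul-3 itself had 75.7, 60.1, 63.6 and 64.2 CPM in HBR227 A to D and 64.3, 64.5, 62.9 and 62.3 CPM in N2 A to D. The strains overlapped and HBR227 A was the highest (0.05 ± 0.07, adjusted p = 0.639, edgeR). The 16 genes listed were for the cullin, ring subunits of cullin ligases, the NEDD8 cycle, the COP9 signalosome and the ubiquitin E1. Of these 16, 4 passed (25.0%, against 21.5% of all genes tested), 2 higher and 2 lower, and the median was -0.04. The higher ones were cand-1, which holds cullins in an unmodified state, at 115, 110, 120 and 115 CPM in HBR227 A to D and 96.9, 91.0, 95.6 and 96.5 CPM in N2 A to D (0.28 ± 0.05, adjusted p = 0.00339, edgeR), and uba-1, the ubiquitin-activating enzyme (0.17 ± 0.04, adjusted p = 0.0211, edgeR). The lower ones were csn-1 and csn-3, subunits of the signalosome that takes NEDD8 off cullins. csn-1 had 40.4, 37.2, 35.1 and 34.6 CPM in HBR227 A to D and 44.4, 53.8, 49.3 and 45.8 CPM in N2 A to D, with every HBR227 library below every N2 library (-0.39 ± 0.08, adjusted p = 0.00669, edgeR). csn-3 was at -0.29 ± 0.08 (adjusted p = 0.0244, edgeR). With 1 library left out at a time, cand-1 and csn-1 passed in all 8 fits, uba-1 in 6 (lost without HBR227 C or HBR227 D) and csn-3 in 2, those without HBR227 A or N2 D. Without HBR227 A 9 of the 16 passed, 2 higher and 7 lower, against 44.3% of all genes tested in that fit, 21.0% higher and 23.3% lower.

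Of the other cullins (cul-1, cul-2, cul-4, cul-5 and cul-6) 0 of 5 passed with edgeR, 0 had an unadjusted p under 0.05, and 0 passed without HBR227 A. Over all genes tested 21.5% passed, 6228 of 17522 had an unadjusted p under 0.05, and 44.3% passed without HBR227 A. Among 11 BTB or MATH genes that carry other names, 2 passed (18.2%, against 21.5% of all genes tested), both higher, and the median was -0.01. Without HBR227 A 5 of the 11 passed, 2 higher and 3 lower, against 44.3% of all genes tested. mel-26, the adaptor for katanin, had 134, 118, 119 and 121 CPM in HBR227 A to D and 109, 106, 111 and 111 CPM in N2 A to D, without overlap (0.17 ± 0.05, adjusted p = 0.0435, edgeR). gcl-1, named for the fly BTB protein germ cell-less, had 44.8, 38.8, 39.4 and 38 CPM in HBR227 A to D and 32, 29.3, 29.4 and 31.2 CPM in N2 A to D, also without overlap (0.40 ± 0.07, adjusted p = 0.00344, edgeR). gcl-1 passed in all 8 fits that left out 1 library, and mel-26 in 2, those without HBR227 A or HBR227 B. Of 4 targets and partners of MEL-26 (mei-1, mei-2, ppfr-1 and unc-89), ppfr-1, a regulatory subunit of protein phosphatase 4, was higher (0.26 ± 0.05, adjusted p = 0.00616, edgeR). mei-1 had 42.9, 24.3, 21.9 and 22.7 CPM in HBR227 A to D and 26.8, 28.5, 27.3 and 26.1 CPM in N2 A to D. HBR227 A was above and the other 3 below every N2 library, so mei-1 was at 0.04 ± 0.20 (adjusted p = 0.918, edgeR), and without HBR227 A it passed as lower (-0.24 ± 0.06, adjusted p = 0.00188, edgeR). mei-2, the partner of katanin MEI-1, had 18.3, 6.47, 6.99 and 6.76 CPM in HBR227 A to D and 6.98, 8.04, 6.996 and 7.29 CPM in N2 A to D. HBR227 A alone was high, as for mei-1, the library with the high oocyte and germline sum, and mei-2 did not pass (0.39 ± 0.34, adjusted p = 0.455, edgeR).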

How the data were processed

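RNA from whole arrested larvae was extracted with Trizol after bead beating, per the labels' protocols. The authors deposited 1 table of raw counts per gene for 8 libraries. The submitters' processing notes name Bowtie 0.12.2, WBcel235 (worm) and mm8, with no role for any of them. Not given in the sources used here are the counting program, its annotation, its use of strand and its treatment of reads that map to several places. Of 46433 entries, 11 whose names had become dates were left out (0.0333% of counts). Each of the 8 columns was matched to its sample by title, and 0 columns went unused. Coordinates are 1-based on WBcel235; 90 of the genes were matched by symbol, 24 through coordinates of the RefSeq symbol, and bath-43 was not matched.

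Counts were scaled by TMM and tested in R 4.3.3 with edgeR 4.0.16 (quasi-likelihood, robust), after filterByExpr with a minimum count of 10, by strain alone. Benjamini-Hochberg adjustment ran over 17522 genes, with 0.05 as threshold. CPM values are TMM-scaled, and standard errors were computed as the absolute log2 fold change over the square root of F. The replicates are biological according to the series' design text, which does not name cultures, and p-values cover the spread between these libraries. The members and the gene lists were chosen with earlier results of these data known. Named genes are those that passed, the 5 highest per kb among members with a gene model and the 5 largest changes that did not pass. Also named are those whose strains did not overlap, math-33, mel-26, cul-3, aptf-1 and list genes that passed. Others were named after their values were seen. Alternatives were DESeq2 1.42.0 (its own scaling and filter), other scalings, filters and thresholds, a replicate block and each library left out. The scripts were tested on simulated data. Python 3.11.15 and matplotlib 3.10.9 drew the figures.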

Additional observations from a re-analysis of the deposited data

Results flagged for a closer look

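In 8 of 76 groups of 4 libraries examined (38 named genes in both strains), 1 library lay far from the other 3 by Dixon's criterion, which chance alone meets in about 1 in 20 groups. HBR227 A was that library in 4 of the 8. It was high for bath-38, at 107 CPM against 89.8 to 91.7 CPM in HBR227 B to D, and for bath-40, at 79 CPM against 63.9 to 65.3 CPM. It was low for math-18, at 1.24 CPM against 3.24 to 3.60 CPM, and for aptf-1, at 0.720 CPM against 1.03 to 1.09 CPM. HBR227 C was low for btb-1, at 0.586 CPM against 0.633 to 0.640 CPM in the other HBR227 libraries. N2 C was high for math-29, at 0.408 CPM against 0.249 to 0.267 CPM in the other N2 libraries, and low for math-18, at 1.24 CPM against 1.66 to 1.72 CPM. N2 B was high for btb-12, at 2.33 CPM against 1.55 to 1.65 CPM in the other N2 libraries.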

How the results depend on the processing

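The count of 14 members that passed was 16 with DESeq2 size factors, 14 with upper quartile scaling and 17 with total counts alone, of 91 tested each time. Over all 17522 genes 3855, 3828 and 4285 passed there, and 3774 in the main fit. With no low-count filter 12 of 114 members passed, against 3419 of 28169 genes. With a CPM of at least 1 in 4 libraries 13 of 68 passed, against 3709 of 14338. With DESeq2 18 of the 114 members with any count passed, against 4492 of the 28169 genes with any count. At an adjusted p under 0.01, 1722 of 17522 genes in all passed, and 6 of 91 members, with 2 math genes and 0 btb genes. At that threshold 2 CUL-3 machinery genes and 1 BTB or MATH gene named otherwise passed. Of 21 tested btb genes 10 had an unadjusted p under 0.05 in edgeR, against 6228 of 17522 genes. With no low-count filter 2 btb genes and 1 gene named otherwise passed, and DESeq2 called 8 math genes. Leaving out 1 library at a time gave 2423 to 7906 genes in all, 8 to 31 members, 5 to 9 bath, 3 to 13 math and 0 to 9 btb genes, 2 to 9 CUL-3 machinery genes and 1 to 5 genes named otherwise. The high end of each came without HBR227 A; without HBR227 B 8 members passed, without N2 B 8, without HBR227 C 9 and without HBR227 D 9. Deviations of same-lettered libraries correlated at -0.01, 0.14, 0.03 and -0.01 for A to D, and 3 of 8 libraries correlated best with their own letter. With so few libraries per strain, and HBR227 A apart from the rest, these values cannot decide whether the letters pair the libraries. With the letter as a replicate block 11 members passed, with 2 btb genes and 1 gene named otherwise, and 10 of the 14 kept their call. Total counts alone moved the median of all genes to -0.11, gave 5 higher and 12 lower members in place of 8 and 6, and turned math-33 to -0.0466, bath-40 to -0.0043 and cul-3 to -0.0541; with 1 library left out cul-3 lay between -0.0189 (without HBR227 A) and 0.0966. None of these 3 genes passed in the fit over all libraries, and the cause was not tested. Over all named genes and alternatives, 486 values kept direction and side of the threshold, 81 lost their call, 14 gained one and 4 turned. The 24 untested members had totals of at most 86 counts, too few for the test, and why they were low was not tested.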
